A study of Mus musculus with 23 samples.

Results

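C1qa, C1qb, Tyrobp and Ctss are genes that microglia, the resident macrophages of the brain, express strongly, and they were followed here in the nucleus accumbens of mice bred for their response to methamphetamine. The 4 genes were taken by name, with every probe set that the platform annotation assigns to them, which gave 5 of 10833 named probe sets and 4 of 8251 genes. C1qa (probe set 98562_at), Tyrobp (100397_at) and Ctss (98543_at) have 1 probe set each. C1qb has a pair: 96020_at, whose values are used below, and another that lay at the lower limit of the table, a log2 value of 2.23, on all 23 arrays and so gave no reading. The 4 genes were above that limit (values over 2.3) on all 23 arrays.

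C1qa and C1qb encode chains of C1q, the recognition molecule of the classical complement pathway, which binds immune complexes and cell debris and starts the cascade that tags them for removal. Tyrobp encodes DAP12, the membrane adaptor through which TREM2 and related receptors signal to SYK kinase, and Ctss encodes cathepsin S, a lysosomal protease that trims the invariant chain during antigen presentation and can also be secreted. In mouse brain all are made chiefly by microglia, and C1q protein is known to build up with age.

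The arrays measured messenger RNA in the nucleus accumbens, the ventral part of the striatum, which dopamine neurons innervate densely. The mice came from lines selected for a high (HMACT) or a low (LMACT) response to acute methamphetamine, a psychostimulant, out of C57BL/6J x DBA/2J stock. The mice received 2 mg/kg methamphetamine or saline, and tissue was taken 1 hour later. Each array carried a 4-way pool of tissue, with 6 pools of HMACT after methamphetamine, 6 of HMACT after saline, 5 of LMACT after methamphetamine and 6 of LMACT after saline. The labels name 1 high and 1 low line, so a line difference here is a difference between that pair, and nothing in them says how animals were spread over pools, so p-values cover the spread between the pools and no more. The mice of HMACT pools were 114.65 ± 34.9 days old (SD over 12 pools) and those of LMACT pools 76.6 ± 22.5 days old (SD over 11 pools). HMACT ages fell into a pair of sets, 141.5 to 154 days (6 pools, replicates 1 to 3) and 77.25 to 88 days (6 pools, replicates 4 to 6).

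The tissue carried its own markers: Penk, Tac1, Pdyn and Drd2, genes of striatal projection neurons, were above the lower limit on most arrays, while Rgs9 was not. Of 47 other microglial genes on the array, 25 were above it on 12 or more arrays, and 15 lay at it on every array, among them the defining markers Cx3cr1, Aif1, Itgam and Ptprc. Genes of other myeloid cells were nearly all at the limit. Of 10 macrophage and monocyte genes, 8 were at it on every array, including Mrc1, Lyve1, Pf4 and Ccr2, and of 10 neutrophil genes, none was above it on 12 or more arrays.

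The arrays differed from each other within groups mostly along 1 axis, which held 62.1% of the residual variance over 5308 genes. Along it, 4 arrays stood apart, with scores of 41.8 to 65.0 against −22.8 to 23.8 for the other 19: HMACT methamphetamine replicate 3, HMACT saline replicates 3 and 5, and LMACT methamphetamine replicate 4. Those 4 arrays had a smaller mean gap between the 3′ and 5′ control probe sets of Gapdh, 1.88 ± 0.70 log2 units (SD, n = 4), against 2.73 ± 0.46 (SD, n = 19) on the other arrays. For Actb it was 1.86 ± 0.40 (SD, n = 4) against 2.47 ± 0.60 (SD, n = 19). The ranges overlapped, at 0.85 to 2.42 against 2.28 to 4.44 for Gapdh and 1.28 to 2.15 against 1.91 to 4.70 for Actb. HMACT saline replicate 3 had the smallest gap for both. The part of the 4 arrays in the results below was not tested, and the differences between groups are given with and without them. No LMACT saline array was among the 4. Among the other 19, LMACT methamphetamine replicate 5 had the widest gaps, 4.44 for Gapdh and 4.70 for Actb, against less than 3 for Gapdh and at most 2.87 for Actb on the rest.

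The gene C1qb lies beside C1qc, which encodes the other C1q chain, and C1qa, and these are consecutive protein-coding genes in the RefSeq table. RefSeq promoters (assembly GRCm38.p6, 250 bases before to 50 after the start) were found for C1qb, C1qc and Ctss. They are shown because the values of C1qb and Ctss lay on opposite sides of 0 in several comparisons below. Capitals mark GAGGAA or its reverse complement TTCCTC, the core bound by PU.1, the myeloid factor encoded by Spi1, searched on both strands.
C1qb, chr4:136886151-136886450, minus strand: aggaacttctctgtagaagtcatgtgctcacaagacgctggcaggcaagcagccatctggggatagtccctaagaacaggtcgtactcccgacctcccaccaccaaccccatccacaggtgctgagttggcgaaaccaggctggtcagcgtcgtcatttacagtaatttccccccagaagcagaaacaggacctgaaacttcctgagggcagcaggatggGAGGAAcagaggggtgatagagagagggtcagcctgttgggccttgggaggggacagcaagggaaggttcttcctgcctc
C1qc, chr4:136892865-136893164, minus strand: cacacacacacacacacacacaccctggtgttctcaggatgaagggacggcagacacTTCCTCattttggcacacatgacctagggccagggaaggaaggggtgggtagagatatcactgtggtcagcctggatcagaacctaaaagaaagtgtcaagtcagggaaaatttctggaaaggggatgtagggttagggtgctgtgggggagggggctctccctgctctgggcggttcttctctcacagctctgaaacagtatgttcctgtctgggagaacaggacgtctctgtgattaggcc
Ctss, chr3:95526536-95526835, plus strand: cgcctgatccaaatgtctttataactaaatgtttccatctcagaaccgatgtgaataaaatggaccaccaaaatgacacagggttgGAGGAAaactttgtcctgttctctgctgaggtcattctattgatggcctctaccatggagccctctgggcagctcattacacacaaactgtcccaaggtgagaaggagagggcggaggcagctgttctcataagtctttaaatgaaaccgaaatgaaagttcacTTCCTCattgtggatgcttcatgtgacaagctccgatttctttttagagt
The C1qb promoter holds 1 GAGGAA, that of C1qc 1 TTCCTC, and that of Ctss 1 of each. Of 32851 RefSeq promoters of this length, 9289 (28.3%) hold the motif, so it is common, and a match is a description of the letters and not a site. Spi1 itself was above the lower limit on 1 of 23 arrays.

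C1qa was spread widely within 3 of the 4 groups. Its log2 level in HMACT after methamphetamine had a lowest value of 5.24, a median of 5.32 and a highest of 8.24, and after saline 5.31, 5.93 and 9.38. In LMACT after methamphetamine the 5 pools read 5.59, 5.65, 7.92, 6.20 and 5.82 (replicates 2 to 6), and after saline the lowest, median and highest were 4.80, 5.29 and 5.62. Most pools thus lay in a narrow band, and the high readings came from single pools, with HMACT saline replicate 3 highest. The group means were 6.02 ± 1.23 (SD, n = 6) in HMACT after methamphetamine and 6.47 ± 1.54 (SD, n = 6) after saline, and 6.24 ± 0.97 (SD, n = 5) in LMACT after methamphetamine and 5.25 ± 0.29 (SD, n = 6) after saline. LMACT saline was the lowest group with the smallest SD, and the other 3 means lay within 1 SD of each other.

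C1qb followed a similar layout. HMACT pools after methamphetamine had a lowest value of 5.02, a median of 5.48 and a highest of 7.64, and after saline 5.30, 6.01 and 9.98. The LMACT methamphetamine pools read 4.07, 5.32, 6.75, 4.94 and 5.57, and LMACT saline pools ran from 4.89 through a median of 5.17 to 5.29. The same 4 arrays were at or near the top of their groups for both chain genes. Its means were 5.95 ± 1.03 in HMACT after methamphetamine and 6.56 ± 1.75 after saline (SD, n = 6 each), 5.33 ± 0.98 (SD, n = 5) in LMACT after methamphetamine and 5.12 ± 0.15 (SD, n = 6) in LMACT after saline.

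Tyrobp and Ctss had smaller SDs in HMACT. Tyrobp, the signalling adaptor, ran from 5.19 through a median of 6.17 to 6.98 in HMACT after methamphetamine and from 5.14 through 6.43 to 7.14 after saline. LMACT pools read 7.02, 5.99, 6.31, 6.65 and 6.36 after methamphetamine and ran from 5.52 through a median of 6.97 to 7.70 after saline. All 4 groups overlapped, with means of 6.10 ± 0.60 in HMACT after methamphetamine and 6.25 ± 0.71 after saline (SD, n = 6 each), and 6.46 ± 0.39 (SD, n = 5) in LMACT after methamphetamine and 6.82 ± 0.82 (SD, n = 6) after saline. Ctss, the lysosomal protease, ran from 9.54 through a median of 10.29 to 10.62 in HMACT after methamphetamine and from 8.92 through 9.98 to 10.83 after saline. In LMACT its 5 methamphetamine pools read 10.79, 10.46, 9.60, 10.14 and 10.74, and its saline pools ran from 10.49 through 10.62 to 10.79. The Ctss means were 10.21 ± 0.38 in HMACT after methamphetamine and 9.99 ± 0.65 after saline (SD, n = 6 each), and 10.34 ± 0.49 (SD, n = 5) in LMACT after methamphetamine and 10.63 ± 0.094 (SD, n = 6) after saline. The lowest Ctss readings of 3 groups came from arrays that stand apart, where C1qa was highest.

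**Figure D1:**
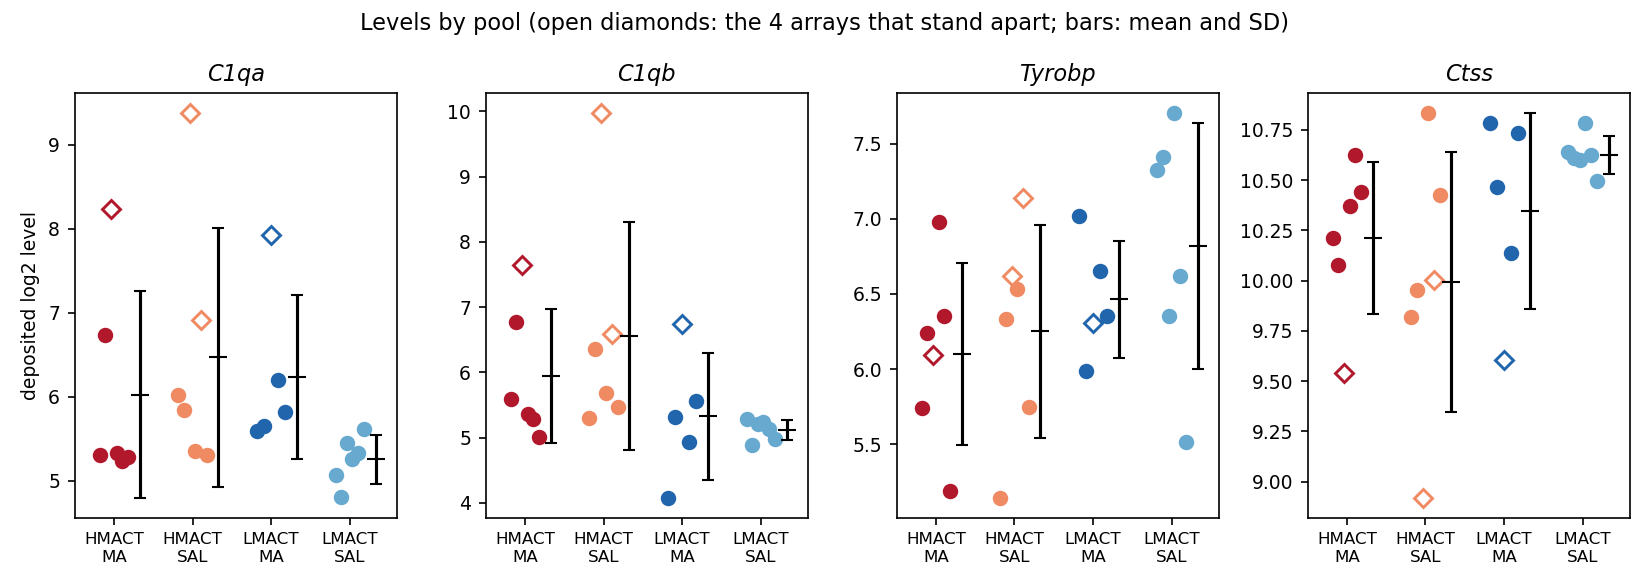
Deposited log2 levels of C1qa, C1qb, Tyrobp and Ctss in each pool, by group, with the group mean and SD as bars and the 4 arrays that stand apart as open diamonds. C1qa is highest on those arrays, C1qb is highest or next to highest within its group on each, Ctss is lowest of its group on 3 of them, and the LMACT saline pools are close together for C1qa, C1qb and Ctss.

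The first comparison asked whether an acute dose of methamphetamine altered the 4 genes within 1 hour. In HMACT the difference, methamphetamine minus saline, was −0.45 for C1qa (SE 0.638), −0.61 for C1qb (SE 0.649), −0.15 for Tyrobp (SE 0.376) and 0.22 for Ctss (SE 0.256), on the log2 scale. None passed limma's test at an adjusted p under 0.05 (adjusted p = 1 for each), and none had an unadjusted p under 0.05. Over all 8251 genes that comparison called 0.0121%. For C1qa and C1qb the sign rested on HMACT saline replicate 3: without that array the differences were 0.13 and 0.070. With the 4 arrays that stand apart left out they were −0.054 and −0.092, and those of Tyrobp and Ctss were 0.16 and 0.087.

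In LMACT, C1qa was higher by 0.98 after methamphetamine (SE 0.669, 95% interval −0.42 to 2.38), and the other differences were 0.21 for C1qb, −0.36 for Tyrobp and −0.28 for Ctss. None passed (limma adjusted p = 1 for each), none had an unadjusted p under 0.05, and that comparison called 0% of all genes (275 of 8251 had an unadjusted p under 0.05). For C1qa, 4 of 5 methamphetamine pools lay above every saline pool, and the other was at 5.59 against a highest saline reading of 5.62. The share of all genes separated to that degree was not counted, so this is a description only. Without LMACT methamphetamine replicate 4, the array at 7.92 and the one LMACT array that stands apart, the C1qa difference was 0.56, that of C1qb −0.15, that of Tyrobp −0.32 and that of Ctss −0.095. Without replicate 5, the array with the wide control gap, the C1qa difference was 0.99. Averaged over the lines, methamphetamine minus saline was 0.27 for C1qa, −0.20 for C1qb, −0.25 for Tyrobp and −0.031 for Ctss (limma adjusted p = 1 for each), where 0.0242% of all genes were called. Without the 4 arrays these were 0.25, −0.12, −0.078 and −0.0044. The C1qa value was 0.044 without HMACT methamphetamine replicate 3, 0.56 without HMACT saline replicate 3, and 0.055 when LMACT methamphetamine replicate 4 was left out. The 95% interval for Ctss, −0.42 to 0.36, was the narrowest of the 4, and those of C1qa (−0.70 to 1.23) and C1qb (−1.19 to 0.78) reach past 1 log2 unit in 1 direction.

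The interaction, the effect in HMACT minus that in LMACT, was −1.43 for C1qa (SE 0.924), −0.82 for C1qb (SE 0.941), 0.21 for Tyrobp (SE 0.546) and 0.50 for Ctss (SE 0.370). No member passed (limma adjusted p = 0.860 for C1qa, C1qb and Ctss, and 1 for Tyrobp), none had an unadjusted p under 0.05, and 0% of all genes were called (216 had an unadjusted p under 0.05). Without the 4 arrays the values were −0.61, 0.058, 0.48 and 0.18. A difference between the lines in their response was thus not shown for any member. In the genes that mark microglial stimulation, 15 of 23 on the array were at the lower limit on every array, Il1b, Tnf and Il6 among them, so that response could be read from few genes.

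The second comparison was between the lines. After saline, HMACT pools minus LMACT pools gave 1.22 for C1qa (SE 0.638, limma adjusted p = 0.359), 1.44 for C1qb (SE 0.649, adjusted p = 0.322), −0.57 for Tyrobp (SE 0.376, adjusted p = 0.463) and −0.63 for Ctss (SE 0.256, adjusted p = 0.320). The C1q chain genes were thus higher and Tyrobp and Ctss lower in HMACT, but no member was called, with 2 at an unadjusted p under 0.05, and 0% of all genes were called, with 1256 at that level. C1qb did not overlap between these groups, though narrowly: its lowest HMACT pool was at 5.30 and its highest LMACT pool at 5.29. Of all 8251 genes, 1.89% did not overlap between these groups. Without the 4 arrays the same differences were 0.38, 0.58, −0.88 and −0.37, and without HMACT saline replicate 3 alone those of C1qa, C1qb and Ctss were 0.63, 0.75 and −0.42.

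After methamphetamine the line difference was −0.21 for C1qa, 0.62 for C1qb, −0.36 for Tyrobp and −0.13 for Ctss (limma adjusted p = 1 for each), with no member at an unadjusted p under 0.05 and 0% of all genes called (354 had an unadjusted p under 0.05). The C1qa sign turned to 0.21 without LMACT methamphetamine replicate 4, and without HMACT methamphetamine replicate 3 it was −0.66. Without the 4 arrays the differences were −0.24, 0.63, −0.40 and −0.19, but single arrays moved them: that of C1qb was 0.28 without HMACT methamphetamine replicate 3, 0.30 without LMACT methamphetamine replicate 2 and 0.97 without LMACT methamphetamine replicate 4. With mean age as a covariate the C1qb difference was 0.0078. Leaving out each array in turn, that of Ctss ran from −0.32 to −4.3e-05 and that of Tyrobp from −0.54 to −0.18. Averaged over the treatments, the line difference was 0.50 for C1qa (SE 0.462, limma adjusted p = 0.686), 1.03 for C1qb (SE 0.471, adjusted p = 0.380), −0.47 for Tyrobp (SE 0.273, adjusted p = 0.469) and −0.38 for Ctss (SE 0.185, adjusted p = 0.399). No member was called, beside 0.194% of all genes. C1qb alone of the members had an unadjusted p under 0.05 (0.0415 by limma), as had 1045 of 8251 genes, 12.7%. Without the 4 arrays the mean line differences were 0.071, 0.60, −0.64 and −0.28.

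The line difference ran differently within chip lots. In the lot of 15 arrays, which holds all older HMACT pools, it was 0.89 for C1qa, 1.30 for C1qb, −0.51 for Tyrobp and −0.59 for Ctss. In the lot of 4 arrays it was 0.15, 1.04, −0.46 and −0.094 in the same order. In the last 4 arrays, where 1 lot number differs in a single digit, it was −0.51, −0.059, −0.26 and 0.12, and this set holds 2 of the arrays that stand apart, HMACT saline replicate 5 and LMACT methamphetamine replicate 4. Each of these sets holds 1 pool a group and gives no test. With mean age as a covariate the line difference was −0.12 for C1qa, 0.42 for C1qb, −0.16 for Tyrobp and −0.096 for Ctss. Age and line were partly confounded, and in that part they cannot be told apart.

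**Figure D2:**
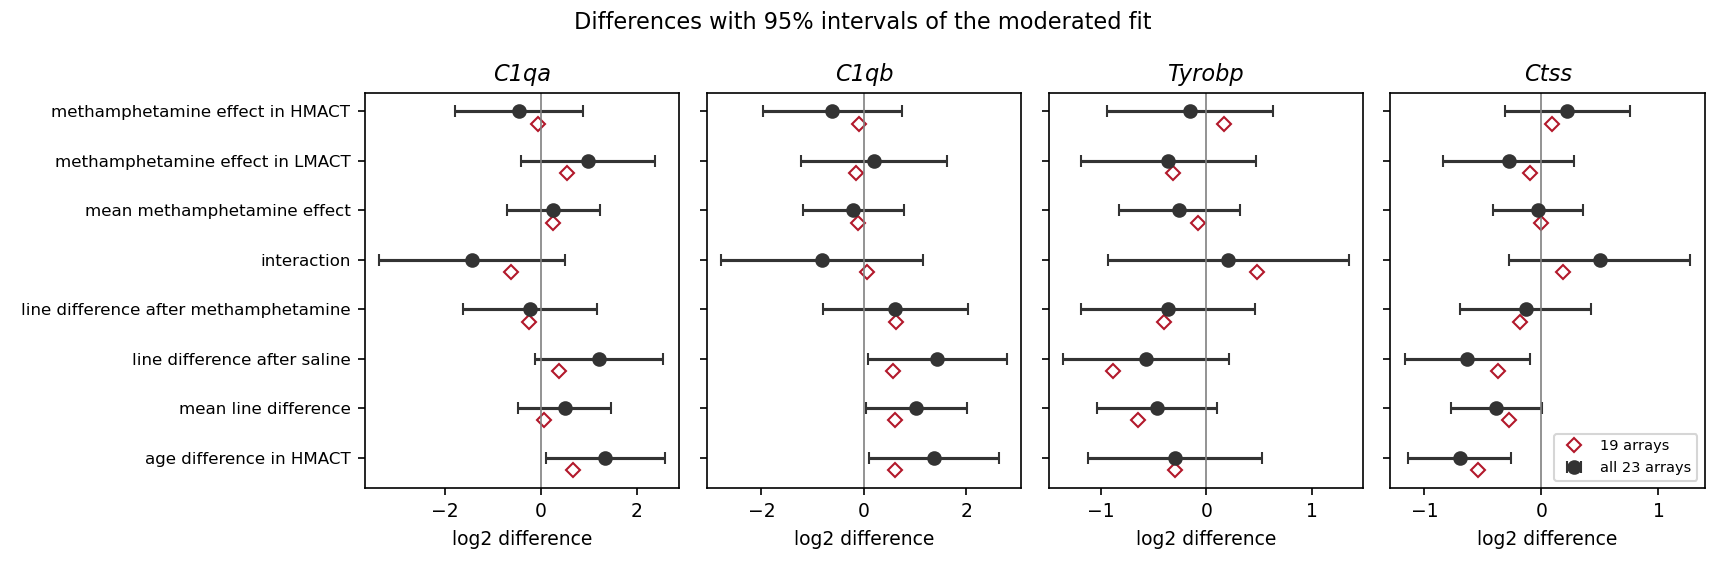
Log2 differences of the 4 genes in each comparison, with 95% intervals for all 23 arrays. Open diamonds are the differences without the 4 arrays that stand apart, drawn without intervals. The C1qa and C1qb intervals are wide, and the Tyrobp estimates for the lines stay below 0 both ways.

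Within HMACT the older pools could be set against the younger ones. C1qa averaged 6.92 ± 1.58 in older pools and 5.57 ± 0.66 in younger pools (SD, n = 6 each), a difference of 1.35 (SE 0.590, limma adjusted p = 0.385). C1qb averaged 6.94 ± 1.71 in older pools and 5.56 ± 0.54 in younger pools (SD, n = 6 each), a difference of 1.38 (SE 0.601, adjusted p = 0.385 by limma). Ctss averaged 9.75 ± 0.47 in older pools and 10.45 ± 0.28 in younger pools (SD, n = 6 each), a difference of −0.70 (SE 0.208, adjusted p = 0.380 by limma). Tyrobp averaged 6.03 ± 0.52 in older pools and 6.32 ± 0.74 in younger pools (SD, n = 6 each), a difference of −0.30 (SE 0.390, adjusted p = 0.802 by limma). The C1q genes were higher and Ctss lower in older pools, and none of the 4 passed the adjusted threshold, with 3 at an unadjusted p under 0.05. Over all genes 0% were called and 1044 of 8251, 12.7%, had an unadjusted p under 0.05.

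Single arrays carried part of this. Without HMACT saline replicate 3 the age difference was 0.78 for C1qa and 0.68 for C1qb. Without the 4 arrays it was 0.67 for C1qa (adjusted p = 0.237 by limma), 0.61 for C1qb (adjusted p = 0.424), −0.29 for Tyrobp and −0.54 for Ctss (adjusted p = 0.0807). The 5 younger pools left were at 5.24 to 5.36 for C1qa, and the 4 older pools at 5.31 to 6.74, so 3 of the 4 older pools lay above every younger one. How many of all genes were separated to that degree was not counted. For Ctss the older pools lay at 9.82 to 10.21 and the younger at 10.37 to 10.83, without overlap, as for 3.35% of all genes on these arrays. With all 12 HMACT arrays Ctss did overlap, since the younger HMACT saline replicate 5 lay below the older HMACT methamphetamine replicates 1 and 2 (10.21 and 10.08). With no array left out and the array axis as a covariate, older minus younger was 0.24 for C1qa and 0.32 for C1qb. It was −0.60 for Tyrobp and −0.34 for Ctss, and none passed (the lowest limma adjusted p was 0.885). The axis was taken from deviations from line and treatment group means, which keep the age difference within HMACT. Older HMACT pools scored −12.9 to 65.0 on the axis and younger ones −22.1 to 41.8. The covariate can thus take up part of an age difference, so this fit cannot separate age from the axis. A fit that weights arrays by their noise did call the age difference of C1qa (1.06, adjusted p = 0.0330), C1qb (1.10, adjusted p = 0.0290) and Ctss (−0.67, adjusted p = 0.00920) by limma, among 864 genes called in all. In LMACT only replicate 6 was over 100 days in each treatment: after methamphetamine it read 5.82 for C1qa, 5.57 for C1qb, 6.36 for Tyrobp and 10.74 for Ctss, and after saline 5.62, 4.99, 5.52 and 10.49 in the same order. All older HMACT pools were on the lot of 15 arrays, which held only replicate 6 of each treatment among the younger HMACT pools. Within that lot the age differences in HMACT were 1.63, 1.70, 0.56 and −0.68, so the Tyrobp sign turned there. It rested on those younger pools, where Tyrobp read 5.75 after saline and 5.19 after methamphetamine.

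**Figure D3:**
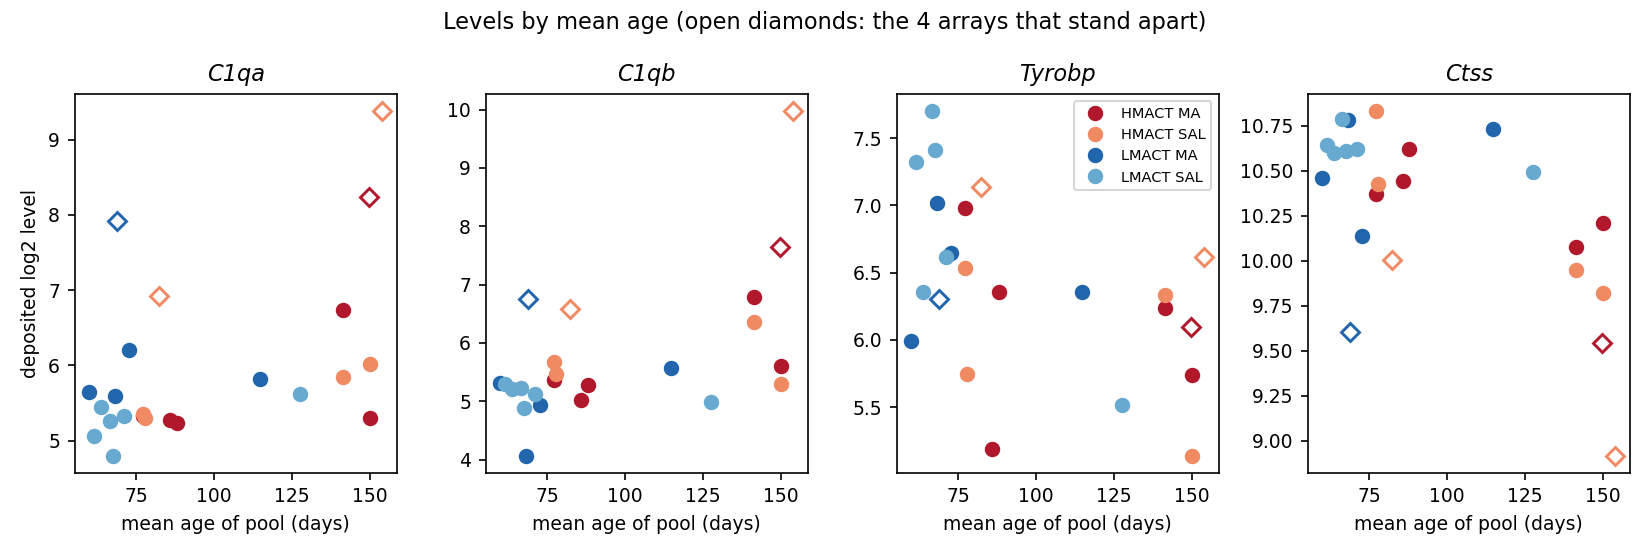
Deposited log2 level of each gene against the mean age of the pool in days, by line and treatment, with the 4 arrays that stand apart as open diamonds. Among HMACT pools, the older ones include the highest C1qa and C1qb readings and mostly lower Ctss readings than the younger ones.

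The 4 arrays that stand apart were where the C1q genes were high. C1qa averaged 8.12 ± 1.02 on those arrays (SD, n = 4) and 5.54 ± 0.44 on the other 19 (SD, n = 19), 2.58 log2 units apart, and C1qb 7.74 ± 1.57 (SD, n = 4) and 5.34 ± 0.56 (SD, n = 19), 2.40 apart. These are descriptions, since the arrays were picked from their own profiles; the same 4 were picked when the members and the microglial, complement, DAP12 and cathepsin lists were left out. The C1qa difference lay at percentile 99.9 of 5308 genes. Ctss was the opposite, at 9.52 ± 0.45 on the 4 arrays (SD, n = 4) and 10.45 ± 0.29 on the others (SD, n = 19), and Tyrobp averaged 6.54 ± 0.45 (SD, n = 4) and 6.38 ± 0.72 (SD, n = 19).

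C1qc went with the other chain genes on part of these arrays. It read 8.36 in HMACT methamphetamine replicate 3, 10.15 in HMACT saline replicate 3, 7.02 in HMACT saline replicate 5 and 6.84 in LMACT methamphetamine replicate 4, against 5.84 to 7.20 on the other 19 arrays. Other microglial genes were higher on the 4 arrays as well: Coro1a, an actin regulator of leukocytes, by 1.63, Csf1r, the receptor for the survival factors CSF1 and IL-34, by 1.35, and Ctsz, a cathepsin, by 1.33. Cd68, a lysosomal membrane protein, was higher by 0.91 and Lgmn, the legumain protease, by 0.83, while Ly86, a partner of the receptor RP105, was lower by 0.64. Of the 25 other microglial genes above the lower limit, 19 were higher and 6 lower on those arrays, with a median of 0.29, against 2981 higher and 2316 lower of 5308 genes and a median of 0.067. Genes of other cell types gave mixed directions. The 2 red blood cell genes above the limit, Hba-a1 and Hbb-b2, were both higher, with a median of 1.22. Medians were 0.53 for oligodendrocyte genes (4 higher, 3 lower), 0.51 for striatal projection neuron genes (2 higher, 2 lower) and 0.49 for astrocyte genes (6 higher, 3 lower). They were 0.11 for endothelial genes (4 higher, 4 lower) and −0.13 for other neuron genes (3 higher, 7 lower). In bulk tissue, a change in the number of microglia and a change in RNA per microglial cell cannot be told apart. Whether either took place on these arrays was not tested.

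**Figure D4:**
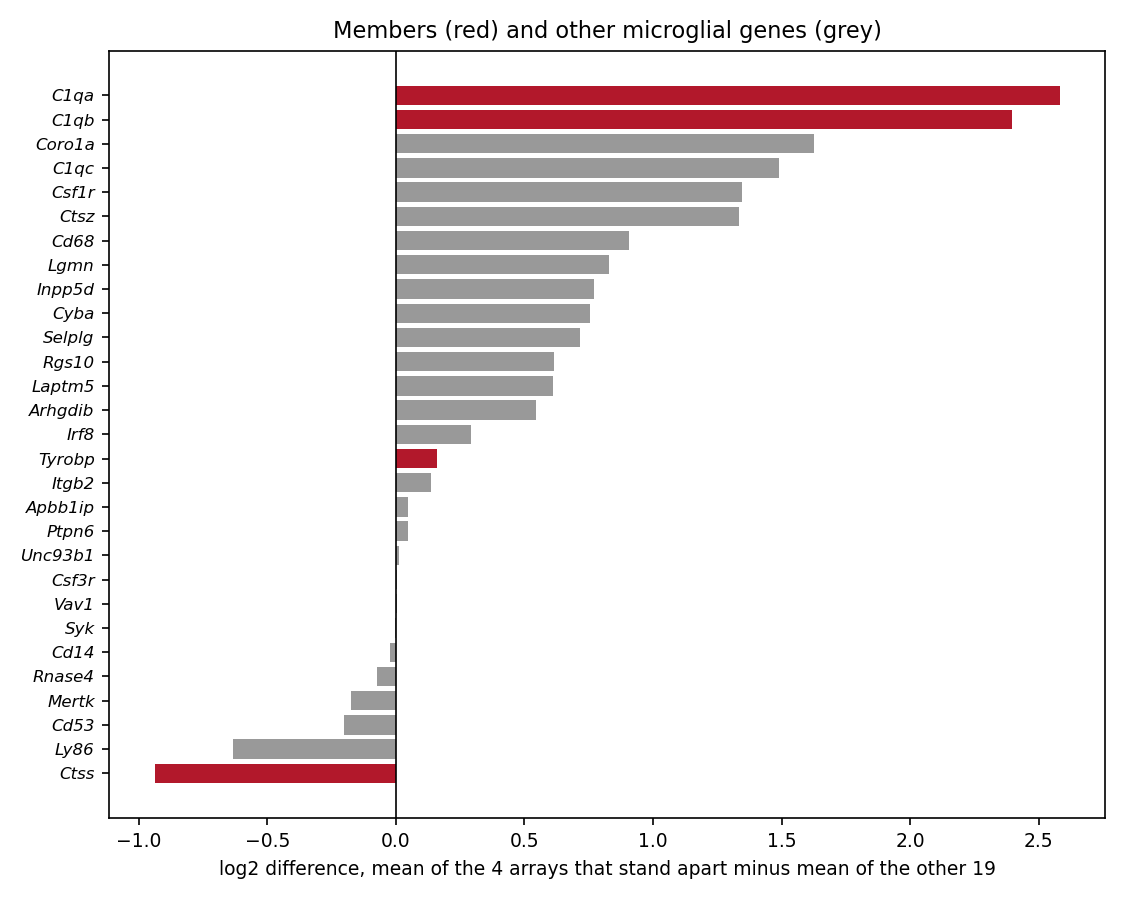
Log2 difference between the mean of the 4 arrays that stand apart and the mean of the other 19 for the 4 members and the 25 other microglial genes above the lower limit. C1qa and C1qb lie farthest to the right, Tyrobp is near 0 and Ctss lies farthest to the left.

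Whether C1q varied with the other microglial genes was asked over the 19 arrays that do not stand apart, using deviations from group means, in 6 pairs of members. The pair C1qa and C1qb correlated at r = 0.60 (Spearman's coefficient 0.46, permutation p = 0.0605, adjusted 0.182). Without the pair of arrays farthest from the median of C1qa it was 0.20, and without HMACT methamphetamine replicate 2 alone it was 0.17 (adjusted permutation p = 0.763). C1qa and Ctss correlated at r = −0.63 (Spearman's coefficient −0.68, permutation p = 0.00317, adjusted 0.0190), the one pair past the threshold. That correlation was −0.61 without the 2 farthest arrays (adjusted permutation p = 0.224), −0.69 without HMACT methamphetamine replicate 2 (adjusted permutation p = 0.0802) and −0.59 without LMACT methamphetamine replicate 5, the array with the wide control gap (adjusted permutation p = 0.102). Within the lot of 15 arrays, 13 arrays gave r = −0.67 (adjusted permutation p = 0.0740), with mean age regressed out r was −0.43 (adjusted permutation p = 0.158), and the other lots held too few arrays.

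Neither C1q gene had a correlation with Tyrobp past the threshold, at r = −0.23 for C1qa (permutation p = 0.393, adjusted 0.471) and 0.089 for C1qb (permutation p = 0.718). C1qb and Ctss gave −0.30 (permutation p = 0.301, adjusted 0.451), and Tyrobp and Ctss 0.34 (permutation p = 0.144, adjusted 0.288). With chip lot as a covariate the pair C1qb and Tyrobp gave r = 0.59 (adjusted permutation p = 0.0241), past the threshold. Within the lot of 15 arrays, 13 arrays gave 0.60 for this pair (adjusted permutation p = 0.0740), not past it. With the array axis regressed out the pair gave −0.18 (adjusted permutation p = 0.460). Tyrobp and Ctss passed the threshold with the array axis regressed out, at 0.49 (adjusted permutation p = 0.0364), but gave −0.14 with chip lot.

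**Figure D5:**
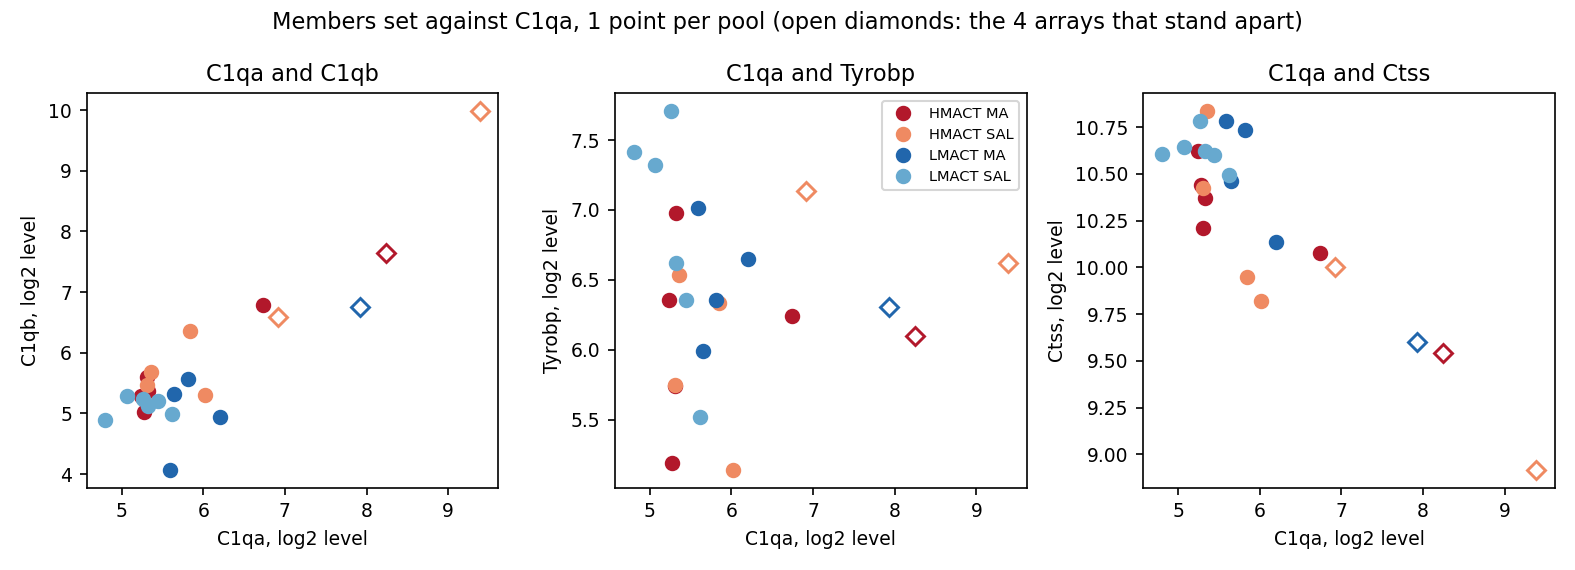
Log2 level of C1qb, Tyrobp and Ctss against C1qa, 1 point per array, by group, with the 4 arrays that stand apart as open diamonds. C1qb is high where C1qa is high and Ctss is low there, while Tyrobp is scattered (r = −0.23 with C1qa over the 19 other arrays).

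The wider microglial list gave a mixed picture over the same 19 arrays, and these correlations are descriptions of arrays that share lots and the axis. C1qa went with Coro1a (r = 0.78), Lgmn (0.60) and Csf1r (0.60), and C1qb with Csf1r (0.81), Lgmn (0.64) and Ctsz (0.61). Tyrobp instead went with Arhgdib (r = 0.70), Cd68 (0.69) and C1qc (0.60). The highest r for Ctss was with Unc93b1, which carries endosomal Toll-like receptors (0.44). Unc93b1 averaged 2.34, near the lower limit, so that r carried little information. C1qc correlated at 0.16 with C1qa and 0.24 with C1qb. Over all 25 genes the median r was 0.069 for C1qa, 0.080 for C1qb, 0.23 for Tyrobp and −0.042 for Ctss, beside −0.025, 0.089, 0.078 and 0.068 over 5307 genes. Tyrobp had a positive r with 21 of the 25, C1qb with 16, C1qa with 13 and Ctss with 12, beside 3016, 3024, 2524 and 2987 of the 5307 genes. Of the 25, Ptpn6, Irf8, Csf3r, Mertk, Itgb2, Syk and Unc93b1 averaged 2.34 to 2.63, near the lower limit. Their r carried little information, and each counts among the positive ones for Tyrobp.

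The 3 genes most like each member stood on none of the lists used here. They were Csnk1g2, Ten1 and Rhoa for C1qa (r = 0.87, 0.86 and 0.86), Msn, Ciao2b and Mrpl11 for C1qb (0.87, 0.86 and 0.85), Pef1, Wdr45 and Immp1l for Tyrobp (0.92, 0.90 and 0.88), and Glce, Nsmaf and Nucks1 for Ctss (0.89, 0.87 and 0.86). In the order of r over 5307 genes, C1qb stood at place 317 for C1qa and Ctss at place 5005. Along the axis that separates the arrays, the deviations of the same 19 arrays gave r = 0.64 for C1qa, 0.71 for C1qb, 0.29 for Tyrobp and −0.34 for Ctss. Against mean age they gave 0.59, 0.39, −0.44 and −0.58 in the same order.

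The pathways around these genes were read from lists of complement, DAP12 and Fc receptor signalling, and cathepsin genes. No listed gene was called in any of the 8 comparisons. Of 28 complement genes on the array, 10 were above the lower limit. In older HMACT pools 9 of the 10 were higher than in younger ones, with a median of 0.071 beside 0.0055 over 5308 genes. The share of all genes that were higher was not counted. C1ra, C1qbp, Cfp, Itgb2 and Mbl2 averaged 2.41 to 2.81, near the lower limit, with age differences of 0 to 0.079, and so carried little information. C1qc differed by 0.86 with age (SE 0.463) and by 0.093 without the 4 arrays, and Cd59a, which blocks the membrane attack complex, by 0.59 (SE 0.324) and 0.83 in the same way. Between the lines C1qc differed by 0.63 (SE 0.348), and 5 complement genes were higher and 5 lower in HMACT. Syk, the kinase that DAP12 recruits, was near the lower limit, at 2.63 on average, and so carried little information.

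Among 7 DAP12 and Fc receptor signalling genes above the limit, Fyn, a Src-family kinase, had the smallest p for the lines, with HMACT minus LMACT at −0.37 (SE 0.107, adjusted p = 0.198 by limma), and methamphetamine minus saline at 0.25 (SE 0.107, adjusted p = 1 by limma). Of 15 genes of cathepsins and their partners, 12 were higher and 2 lower in older HMACT pools, with a median of 0.16 that was 0.019 without the 4 arrays. Ctsc, Ctsk, Cd74 and H2-Eb1 averaged 2.40 to 2.83, near the lower limit, with age differences of −0.0094 to 0.013, and so carried little information. Ctsl, cathepsin L, was lower like Ctss, at −0.53 (SE 0.143, adjusted p = 0.380 by limma), and −0.34 without the 4 arrays. Ctsa, a lysosomal carboxypeptidase, was higher by 0.63 (SE 0.280) and Ctsd, cathepsin D, by 0.28 (SE 0.218). In the other microglial list the smallest p-values with age were for Selplg, a selectin ligand (0.77, SE 0.230), Csf1r (0.80, SE 0.307) and Coro1a (0.91, SE 0.367), with adjusted p = 0.380, 0.380 and 0.383 by limma and values of 0.65, 0.62 and 0.75 without the 4 arrays. By the mean effect of methamphetamine, 13 of those 25 genes were higher and 12 lower, with Ly86 at −0.38 (SE 0.219).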

How the data were processed

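The deposited table holds 1 value per probe set and array. How the authors normalized the deposited log2 values is not given in the sources used here, and the log2 scale was inferred from their range, 2.23 to 16.4. The submitters' processing notes name R 2.7.1 with no role. Of 12488 probe sets, 66 were controls, 10833 had 1 gene, 396 several and 1193 were not listed, and 10817 matched RefSeq (GRCm38.p6). The probe set with the highest mean stood for a gene, giving 8251 genes, of which 2089 lay at the floor (values up to 2.3) on all arrays. Arrays differed by at least 0.0861 on average, so none was a copy. The number of arrays, not a read depth, limits precision.

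The model was fitted with limma 3.58.1 (R 4.3.3), on 4 group means over 23 arrays (6 for age, split at 100 days), eBayes, and Benjamini-Hochberg adjusted p-values under 0.05 over 8251 genes, two-sided. Correlations used deviations from group means with 100000 two-sided shuffles within groups, adjusted over 6 pairs. The scripts were tested on simulated data. The array axis is principal component 1 of the residuals, and arrays over the median by 3.5 scaled median absolute deviations stand apart. The members and lists were chosen with earlier results of these data known. Named were the members, the 3 genes most like each, listed microglial genes, and up to 3 genes of each other list with the smallest p-values; Cd59a, Ctsd and Syk and the marker genes were named for their roles, after their values were seen. Alternatives were other scalings, probe set rules, array weights, trend and robust eBayes, chip lot, age, a replicate block, a floor filter and leaving out each array. Fits without the 4 arrays, or with the axis as a covariate, were chosen after seeing the data.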

Additional observations from a re-analysis of the deposited data

Results flagged for a closer look

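For 2 of 16 gene and group combinations, 1 pool lay far from the rest of its group by Dixon's test, which flags about 1 in 20 by chance. C1qa in LMACT after methamphetamine was highest in replicate 4, at 7.92, with a gap of 0.738 of the range against a critical value of 0.71. C1qb in HMACT after saline was highest in replicate 3, at 9.98, with a gap of 0.726 against 0.625. Both pools are among the 4 arrays that stand apart.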

How the results depend on the processing

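Of the alternatives for the members' differences, 1117 kept direction and side of the threshold, 28 changed sign and 3, all under array weights, passed the threshold. Quantile normalization and median centring turned no sign of a member's difference.

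Counts of called genes moved as follows, with the main counts 1 (methamphetamine in HMACT), 0 (in LMACT), 2 (mean), 0 (interaction), 0 (lines after saline), 0 (after methamphetamine), 16 (mean line difference) and 0 (age). For methamphetamine in HMACT, array weights gave 2, the lot of 15 arrays 0, leaving out the 4 arrays 3 and the axis 2. In LMACT, the floor filter gave 1, weights 31 and without the 4 arrays 1. For the mean effect, weights gave 6, the lot of 15 arrays 0, without the 4 arrays 5 and the axis 7. For the lines after saline, weights gave 236 and without the 4 arrays 1. After methamphetamine, quantile gave 2, median centring 6, weights 136, without the 4 arrays 3 and the axis 14. For the mean line difference, quantile gave 26, the floor filter 32, weights 830, the lot of 15 arrays 1, age 1, without the 4 arrays 46 and the axis 37. Median centring, under which genes at the floor take each array's offset, gave 2854. For age, quantile gave 2, every probe set 1, trend and robust 1, weights 864, the lot of 15 arrays 81 and without the 4 arrays 30. The cause of these changes in count was not tested.

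Signs turned for Tyrobp with methamphetamine in HMACT (0.16 without the 4 arrays), C1qb in LMACT (−0.15 without the 4 arrays, −0.40 with the axis), Ctss in the mean effect (0.068 with weights, 0.072 in the lot of 15 arrays, 0.014 with the axis), C1qb in the interaction (0.058 without the 4 arrays, 0.15 with the axis) and Tyrobp there (−0.023 in the lot of 15 arrays). For the lines they turned for C1qa after saline (−0.080 with the axis), C1qa after methamphetamine (0.50 in the lot of 15 arrays), Ctss after methamphetamine (0.16 with age) and the mean C1qa difference (−0.12 with age, −0.29 with the axis). For age, Tyrobp gave 0.32 with chip lot and 0.56 in the lot of 15 arrays. Leaving out each array in turn gave both signs for methamphetamine in HMACT (C1qa −0.89 to 0.13, C1qb −0.95 to 0.070, Tyrobp −0.37 to 0.031), C1qb in LMACT (−0.15 to 0.52), the mean effect of C1qb (−0.38 to 0.14) and Ctss (−0.14 to 0.062), the Tyrobp interaction (−0.015 to 0.47) and C1qa between lines after methamphetamine (−0.66 to 0.21).

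Correlations: C1qa and Tyrobp gave 0.15 with chip lot, 0.13 in the lot of 15 arrays, 0.083 over 23 arrays and 0.035 with age. C1qa and Ctss lost the call at −0.50, −0.67, −0.61 (2 farthest arrays left out), −0.43 (age) and −0.56 (axis). C1qb and Tyrobp gave 0.59 with chip lot, 0.60 in the lot of 15 arrays and −0.18 with the axis. Tyrobp and Ctss gave −0.14 with chip lot, −0.058 in the lot of 15 arrays and 0.49 with the axis, where the pair passed the threshold. C1qa and C1qb gave 0.93, C1qa and Ctss −0.89, and C1qb and Ctss −0.82, over 23 arrays, where the 4 arrays form a set of their own. C1qb and Ctss gave 0.074 without the 2 farthest arrays.

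Leaving out each array gave counts of 1 to 2, 0 to 2, 2 to 5, 0 to 0, 0 to 2, 0 to 3, 9 to 76 and 0 to 98 in the order of the main counts. The correlations then ranged from 0.17 to 0.71 (C1qa, C1qb), −0.45 to −0.12 (C1qa, Tyrobp), −0.69 to −0.59 (C1qa, Ctss), −0.046 to 0.25 (C1qb, Tyrobp), −0.47 to −0.15 (C1qb, Ctss) and 0.21 to 0.43 (Tyrobp, Ctss).

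Same-numbered pools of a line correlated at −0.62 to 0.88, over 0.1 in 5 of 6 HMACT pairs and 3 of 5 LMACT pairs. Some HMACT pairs share a mean age in the labels (150, 141.5 and 77.25 days for replicates 1, 2 and 4), but no label says that a number marks a batch and not every pair passed, so the pairing was not taken as established. With replicate number as a block the SE of C1qa with methamphetamine in HMACT was 0.383, against 0.638 without it. The counts were 0 for methamphetamine in HMACT and 4 for the mean line difference, and the block changed no other count of calls and no call of a member.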
